A study of Homo sapiens with 90 samples.

Results

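The step from 1 to 3 µM imazalil was examined in HepaRG cells, a line of human hepatic progenitors that yields cells resembling hepatocytes and bile duct epithelium. Imazalil is an imidazole fungicide that blocks fungal sterol synthesis. The samples were 3 arrays at 3 µM and 3 arrays at 1 µM, 6 of the 90 array columns of the series, chosen by the labelled agent and concentration alone. All 6 cultures were grown in collagen-coated wells, were given induction medium before treatment on day 8, and were exposed for 24 h with DMSO as the solvent at 0.2%. No DMSO array entered the comparison, so each difference is between 2 treated groups. The replicate numbers 1, 2 and 3 mark independent batches of cells, each exposed at both concentrations. The same line was also exposed to imazalil at 7 other concentrations between 0.001 and 10 µM, and to fenbuconazole and 2,4-D. The values are log2 expression on Affymetrix HT HG-U133+ PM arrays after robust multi-array averaging (RMA), and a difference of 1 is a doubling.

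Drug-metabolizing P450 genes of the liver are controlled by receptors that sense foreign chemicals. The constitutive androstane receptor (CAR) and the pregnane X receptor (PXR) induce the CYP2B and CYP3A genes, and the aryl hydrocarbon receptor (AHR) induces the CYP1 genes. Azole fungicides bind the sterol demethylase of fungi, and the human enzyme of the same reaction, CYP51A1, belongs to the cholesterol synthesis pathway, whose genes are raised by SREBP2 when sterols run low.

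The tests used limma, fitted to the 27 imazalil-treated arrays with a mean for each concentration and the replicate as a block. Arrays of the same line agreed closely, and the 6 arrays of the step correlated at r between 0.989 and 0.996 with medians of 2.81 to 2.91. The array of replicate 3 at 3 µM stood apart, with the lowest mean correlation with the other 26 arrays (0.989, against 0.991 or higher elsewhere) and the highest median. Without that array, the genes with an unadjusted p under 0.05 numbered 992 in place of 1767 of 19774, so values without it are given below where they bear on a call. The arrays carried liver transcripts. All 13 measured hepatocyte markers lay above the 90th percentile of probe sets, as did 2 of 10 biliary, 4 of 11 mesenchymal and 0 of 10 endothelial and 0 of 10 immune cell markers. Between 1 and 3 µM no marker of these 5 lists passed the test, and the mean of the hepatocyte markers ran from 11.52 to 11.68 at 1 µM and from 11.56 to 11.61 at 3 µM. In bulk RNA, fewer cells of a type and less RNA per cell cannot be told apart.

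Between 1 and 3 µM, 5 genes rose and 0 fell of 19774 genes tested (0.0253%) at an adjusted p under 0.05. These were CYP2B6, CYP3A4 and CYP3A7, P450 genes under CAR and PXR, CYP1A1, a P450 gene under AHR, and ZSCAN25, a zinc finger gene. Their fold changes ran from 2.15 for CYP3A7 to 3.64 for CYP2B6. In the same fit 1767 genes (8.94%) had an unadjusted p under 0.05, 731 of them higher (3.7%) and 1036 lower (5.24%). The 3 µM arrays lay all above the 1 µM arrays for 5.26% of genes and all below for 7.51%, which is the background for each statement on overlap. Over all genes the median log2 difference was -0.0088 with an SD of 0.17. A difference above 0.5 was measured for 34 genes and one below -0.5 for 119, and the 5 genes above 1 were those that rose by the test. The 1 gene below -1 was RBM48, at -1.03, which did not pass (adjusted p = 0.388). Without replicate 2 in every concentration, the 6 genes that passed were 3 higher (CYP2B6, CYP3A4 and CYP3A7) and 3 lower (RBM48, GORAB and MCTP2, at -1.48, -0.74 and -0.91), and these 3 lower genes are named after their values were seen. At the level of probe sets, 9 of 54715 passed (0.0164%), all higher at 3 µM.

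**Figure D1:**
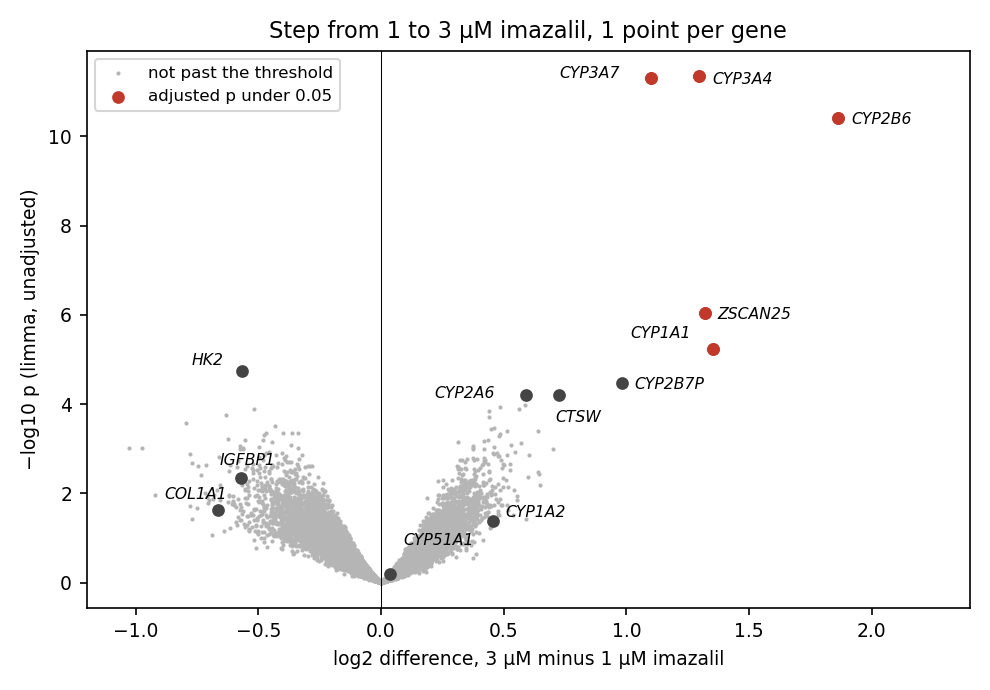
Log2 difference between 3 and 1 µM imazalil (x) against the unadjusted p on a −log10 scale (y), 1 point per gene for 19774 genes. The 5 red genes passed an adjusted p of 0.05 and lie at 1.10 to 1.86, while HK2 at -0.57 and CYP2B7P at 0.98 lie just short of it.

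CYP2B6, a P450 that oxidizes bupropion and efavirenz and is a marker of CAR activity, had the greatest difference of all genes. Its levels at 1 µM were 5.97, 5.45 and 5.51 in replicates 1, 2 and 3, and at 3 µM they were 7.28, 7.43 and 7.82. Every 3 µM array lay above every 1 µM array. The log2 difference was 1.86 (SE 0.16, 95% interval 1.54 to 2.19, adjusted p = 2.50e-07). The batches differed in how far they moved, by 1.31, 1.97 and 2.31, the smallest in the batch that started highest.

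CYP3A4, which clears more drugs than any other hepatic P450, was already among the brighter genes at 1 µM. Its levels were 10.70, 10.59 and 10.40 at 1 µM and 11.88, 11.96 and 11.74 at 3 µM. The groups did not overlap, and the 3 batches moved by nearly equal amounts. The log2 difference was 1.30 (SE 0.099, adjusted p = 4.80e-08), a fold change of 2.46.

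CYP3A7, the P450 of the fetal liver, moved with CYP3A4. Its levels were 9.95, 9.96 and 9.70 at 1 µM and 10.99, 10.997 and 10.92 at 3 µM. The log2 difference was 1.10 (SE 0.085, adjusted p = 4.80e-08) with no overlap between the groups. Replicate 3 was the lowest array of both CYP3A genes at both concentrations.

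**Figure D2:**
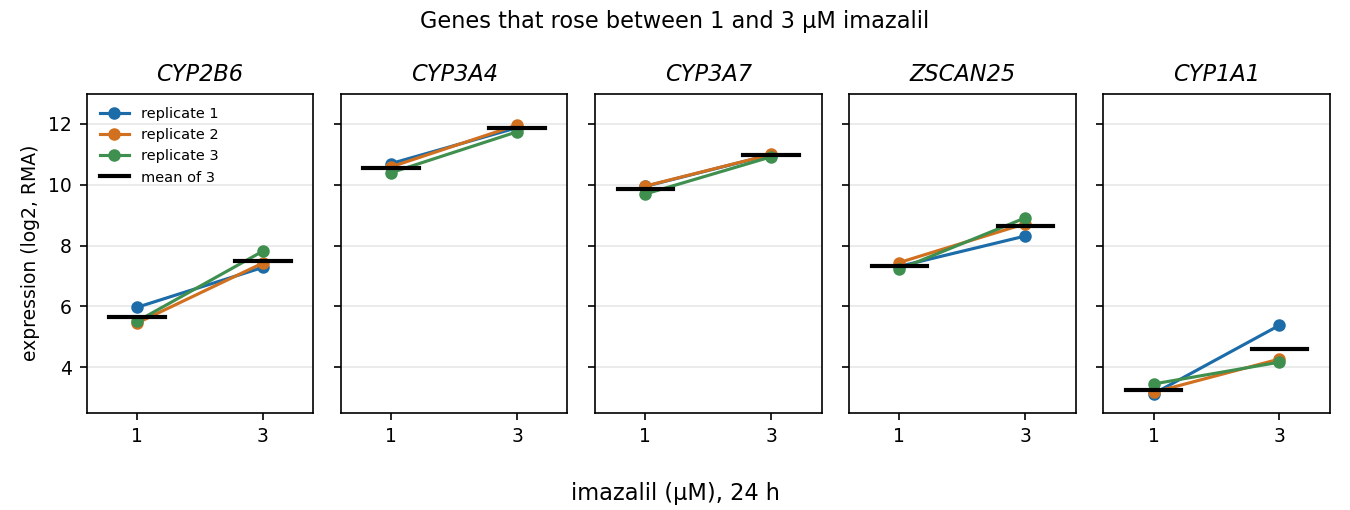
Expression on the log2 scale (y) at 1 and 3 µM imazalil (x) for the 5 genes that rose. Each coloured line joins the 2 arrays of a replicate and black bars are means of 3 arrays; every line rises, and CYP1A1 shows the widest spread at 3 µM, from 4.17 to 5.38.

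The sequences upstream of the 5 genes are shown because these genes passed the same test and because CYP3A4 and CYP2B6 are classic targets of the same receptors. They are the 250 bases before the annotated start in RefSeq, build GRCh38.p14, 5′ to 3′ on the strand of the gene. Capitals mark TGAACTNNNNNNAGGTCA, an everted repeat known as a PXR and CAR response element, in CYP3A4, its half-site AGGTCA in CYP3A7 and CYP2B6, and GCGTG, the core of the AHR response element, in CYP1A1. Both strands were searched, and the half-site also occurs within the everted repeat. ZSCAN25 held none of these letters in the window. The windows of CYP1A2, CYP2A6 and CYP3A43, which did not pass the test, held none either. A role of these letters in the rise was not tested.
CYP3A4 (chr7:99784185-99784434, minus strand): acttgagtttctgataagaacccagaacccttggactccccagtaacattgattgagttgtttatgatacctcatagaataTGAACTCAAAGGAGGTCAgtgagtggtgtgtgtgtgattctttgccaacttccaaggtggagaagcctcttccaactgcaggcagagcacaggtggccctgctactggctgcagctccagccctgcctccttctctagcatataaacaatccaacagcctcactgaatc
CYP3A7 (chr7:99735197-99735446, minus strand): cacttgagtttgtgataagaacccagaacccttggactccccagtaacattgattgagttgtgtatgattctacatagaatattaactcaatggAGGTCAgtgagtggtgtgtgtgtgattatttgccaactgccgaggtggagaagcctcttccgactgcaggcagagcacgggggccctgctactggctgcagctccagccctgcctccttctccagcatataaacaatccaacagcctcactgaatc
CYP2B6 (chr19:40991032-40991281, plus strand): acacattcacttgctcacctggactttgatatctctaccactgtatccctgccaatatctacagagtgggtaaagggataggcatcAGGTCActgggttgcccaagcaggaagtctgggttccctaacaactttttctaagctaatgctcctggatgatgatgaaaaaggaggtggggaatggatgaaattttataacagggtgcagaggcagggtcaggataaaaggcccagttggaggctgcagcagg
CYP1A1 (chr15:74725529-74725778, minus strand): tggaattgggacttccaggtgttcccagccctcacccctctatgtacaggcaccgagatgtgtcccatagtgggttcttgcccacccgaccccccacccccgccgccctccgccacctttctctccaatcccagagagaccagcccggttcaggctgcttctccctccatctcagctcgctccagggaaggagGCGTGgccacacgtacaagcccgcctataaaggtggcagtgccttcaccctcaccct
ZSCAN25 (chr7:99616696-99616945, plus strand): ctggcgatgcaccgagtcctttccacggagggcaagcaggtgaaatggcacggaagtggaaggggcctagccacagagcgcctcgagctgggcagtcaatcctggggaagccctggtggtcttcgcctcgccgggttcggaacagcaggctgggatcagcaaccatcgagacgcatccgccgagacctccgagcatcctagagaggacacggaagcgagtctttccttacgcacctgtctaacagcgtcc

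Over 35116 RefSeq promoter windows of the same length, 3 (0.00854%) held the everted repeat, 4242 (12.1%) the half-site and 11313 (32.2%) the AHR core. The upstream windows of CYP3A4 and CYP3A7 were identical at 236 of 250 aligned bases (94.4%). The 18 bases closest to the everted repeat in the 4 CYP3A genes are shown to let the copies be compared, with capitals at the letters that match it.
CYP3A4: TGAACTcaaaggAGGTCA
CYP3A7: TtAACTcaatggAGGTCA
CYP3A5: TGAACTcaaaagAGGTCA
CYP3A43: gGAAaTcaaaggAGGcCA
Of 12 letters searched, 12 matched in CYP3A4 and CYP3A5, 11 in CYP3A7 and 9 in CYP3A43. CYP3A5 did not pass the test between 1 and 3 µM (0.22, SE 0.13, adjusted p = 0.617). Its other probe sets differed by 0.36, -0.11 and 0.45 (adjusted p over probe sets 0.431, 0.836 and 0.610). The distal enhancers of these genes lie outside the window and were not examined.

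Several probe sets measured each of these genes, and those of the x and s kinds, so named by a suffix of the array's design, can bind transcripts of close relatives. Of 4 CYP3A4 probe sets, 3 rose by 1.75, 1.30 and 1.30, and the dimmest, at 2.27 at 1 µM, differed by -0.094. Of 3 CYP3A7 probe sets, 2 rose by 1.10 and 0.61, and the dimmest differed by -0.0074. The 3 CYP3A4 probe sets that rose and the brighter CYP3A7 probe set are of the x kind, so the share of each gene in their rise is uncertain. The dimmest CYP3A4 probe set is not of the x kind, and it lay below the median level of the arrays. No CYP3A4 probe set outside the x kind thus showed the rise. The CYP3A7 probe set that rose by 0.61 is not of that kind.

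CYP2B6 had 1 probe set that rose by 1.86 and another, of the x kind and dimmer, at 0.72 (adjusted p over probe sets 0.213). A further probe set that the annotation gives to both CYP2B6 and its pseudogene CYP2B7P rose by 1.68. CYP2B7P itself was at 5.02, 4.56 and 4.32 at 1 µM and at 5.44, 5.42 and 5.98 at 3 µM. It did not pass the test (0.98, SE 0.19, adjusted p = 0.0966), although the groups did not overlap.

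ZSCAN25, which encodes a zinc finger protein with a SCAN domain, is the gene next to CYP3A5 in the RefSeq table, followed by CYP3A7 and CYP3A4. Its levels were 7.32, 7.44 and 7.23 at 1 µM and 8.32, 8.72 and 8.91 at 3 µM, with no overlap. The log2 difference was 1.32 (SE 0.20, adjusted p = 0.00443). This rise belonged to 1 of its 3 probe sets. The other two stood at 4.99 and 4.89 at 1 µM and each differed by 0.07 (adjusted p over probe sets 0.932 and 0.909). With all 3 probe sets averaged, ZSCAN25 differed by 0.49 and did not pass (adjusted p = 0.223). Its call was also lost without replicate 1 (adjusted p = 0.0580), without replicate 2 (0.143) and without the array of replicate 3 at 3 µM (0.0704), and its adjusted p ran from 0.00212 to 0.223 over 15 alternatives.

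CYP1A1, the P450 most used as a marker of AHR activity, was dim at 1 µM and brighter in every batch at 3 µM. Its levels were 3.13, 3.18 and 3.45 at 1 µM and 5.38, 4.27 and 4.17 at 3 µM. The lowest 3 µM array lay above the highest 1 µM array. The log2 difference was 1.35 (SE 0.23, adjusted p = 0.0230), and the batches moved by 2.25, 1.09 and 0.72. The size rested on replicate 1, without which the difference was 0.91 (adjusted p = 0.636). The call was lost in 6 of 15 alternatives, and the adjusted p ran from 0.00614 to 0.636. Besides the fit without replicate 1, these were fits without replicate 2 (adjusted p = 0.0582) and without the replicate block (0.0714). The others had the replicate as a random effect (0.0537), no 0.001 to 0.1 µM arrays (0.539) or the 6 arrays of the step alone (0.630). CYP1A1 had a single probe set of its own.

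CYP1A2, the neighbour of CYP1A1 and the P450 that clears caffeine, showed no such separation. Its levels were 4.76, 4.29 and 4.25 at 1 µM and 5.12, 5.28 and 4.26 at 3 µM. The groups overlapped, since replicate 3 hardly moved. The log2 difference was 0.45 (SE 0.21, adjusted p = 0.552), and a second, dimmer probe set differed by 0.64 (adjusted p over probe sets 0.493). These probe sets are of the x and s kinds, so their values may include transcripts of relatives such as CYP1A1. Of the other AHR targets, CYP1B1 was at 0.22, ALDH3A1 at 0.11, TIPARP at -0.074 and AHRR, the AHR repressor, at -0.22. None of these 4 passed. In all, 1 of 9 measured AHR targets rose and 0 fell, with a median of 0.073 that turned to -0.013 when probe sets were averaged.

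The CAR and PXR list had 18 measured genes, of which 3 rose and 0 fell, and these were the 3 P450 genes described first. Each kept its call in 14 of 15 alternatives, and the exception was the fit to the 6 arrays alone. The median over the list was 0.32, against -0.0088 over all genes. A positive difference was measured for 17 members (47.6% of all genes), 15 of 18 were higher in all 3 batches (14.1% of all genes were), and 12 had an unadjusted p under 0.05 and a higher level (3.7% of all genes). The median and these shares include the 3 called genes, and the list was chosen with earlier results of these data known. CYP3A4, CYP3A7, CYP3A43, CYP2A6 and CYP2A7 stand on probe sets of the x or f kind, which can bind transcripts of relatives. The 18 members are thus not independent measures.

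None of the other 15 members of this list passed the test, and 14 of them had a positive difference. CYP2A6, the nicotine oxidase in the same P450 cluster as CYP2B6, was at 7.83, 8.04 and 8.02 at 1 µM and at 8.47, 8.54 and 8.66 at 3 µM. The groups did not overlap, and the difference was 0.59 (adjusted p = 0.141), with its 4 probe sets between 0.57 and 0.70. All 4 are of the x or f kind, which can bind transcripts of relatives such as CYP2A7, so they are not independent measures of CYP2A6. CYP3A43 was at 0.70 from a level of 3.85 by one of 4 probe sets, all of the x kind, which ran from 0.27 to 0.70. CYP2A7 was at 0.41 and CYP2C8, a P450 that clears paclitaxel, at 0.32. Among the partners of the P450 enzymes, POR, the reductase that feeds them electrons, was at 0.38 (adjusted p = 0.388). ALAS1, the first enzyme of heme synthesis, was at 0.24 (adjusted p = 0.509).

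Of the drug exporters, ABCB1 (P-glycoprotein) had levels of 8.48, 8.38 and 8.31 at 1 µM and of 8.82, 8.76 and 8.52 at 3 µM. The groups did not overlap, but the difference of 0.31 did not pass (adjusted p = 0.388). ABCC2, a canalicular exporter of conjugates, was at 0.19 (adjusted p = 0.510). The conjugating genes of the list had small differences, with SULT2A1 at 0.060 and GSTA1, the lone member below 0, at -0.15. The listed UGT1A1 had no probe set with that symbol alone and was matched by a synonym to UGT1A6, at 0.073. UGT1A6 is therefore counted among the measured members of this list and of the phase II list, and it is also a member of the AHR list.

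Of the 12 genes with the smallest p, 7 did not pass. The first of them was HK2, a hexokinase that is low in hepatocytes. HK2 was at 3.56, 3.64 and 3.76 at 1 µM and at 3.11, 3.10 and 3.05 at 3 µM, close to the median level of the arrays, and its groups did not overlap. The difference was -0.57 (SE 0.11, adjusted p = 0.0610), and its second probe set differed by 0.085. HK2 passed in 3 of 15 alternatives, those with arrays centred on their medians, with a further quantile normalization and with dim probe sets left out (adjusted p = 0.0494, 0.0385 and 0.0425), and its adjusted p otherwise reached 0.999. CTSW, a cathepsin of cytotoxic lymphocytes, was at 0.73 (adjusted p = 0.141) from a level near the median of the arrays, and CSAD, an enzyme of taurine synthesis, was at -0.52 (adjusted p = 0.200). LOC149684 and LOC114224 were at 0.59 and 0.48 (adjusted p = 0.200 for both), again from levels at or below the median of the arrays.

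No gene of cholesterol synthesis or SREBP2 control passed the test. Of 21 measured members, 0 rose and 0 fell, 11 had a positive difference, and their median was 0.023. CYP51A1, the lanosterol demethylase, was at 10.66, 10.78 and 10.62 at 1 µM and at 10.64, 10.89 and 10.65 at 3 µM. The groups overlapped, and the difference was 0.039 with an interval from -0.13 to 0.21. Its other probe set differed by -0.56 (adjusted p over probe sets 0.618), and its sign turned when arrays were centred or probe sets averaged. HMGCS1, which makes HMG-CoA, was at 0.089 with an interval from -0.099 to 0.28, and its sign turned with averaged probe sets. The range of the list was -0.22 for SC5D, a late desaturase of the pathway, to 0.16 for SREBF2.

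Genes of the stress and amino acid responses gave 0 calls in either direction. INHBE, an activin subunit secreted by hepatocytes, differed by -0.21 (adjusted p = 0.758), and its batches lay farther apart than its concentrations, at 6.86, 7.66 and 7.95 at 1 µM. TRIB3, a pseudokinase of the ER stress response, differed by 0.024 (adjusted p = 0.957), and its sign turned when arrays were centred or replicate 3 was left out. Of 20 genes of ER stress and the amino acid response the median was -0.099, and of 15 NRF2 targets, the antioxidant genes, it was 0.044. HMOX1, heme oxygenase, was the highest NRF2 target at 0.32 (adjusted p = 0.497), with nearly equal differences in the 3 batches and no overlap.

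Of 10 alcohol and aldehyde dehydrogenases, 0 passed, 1 was positive (47.6% of all genes were), and the median of -0.13 was the lowest of the 33 lists. ADH1A, an alcohol dehydrogenase, was lower in every batch and did not overlap between the groups (-0.47, adjusted p = 0.337). CYP2E1, the ethanol-oxidizing P450, was at 10.00, 10.04 and 10.08 at 1 µM and at 9.81, 9.82 and 9.78 at 3 µM. Its difference of -0.24 did not pass (adjusted p = 0.487). In 3 of the further lists without a call, 3 of 11 phase II conjugation genes, 2 of 7 gluconeogenesis genes and 4 of 18 PPARA targets were positive. Their lowest members were SULT1E1, the estrogen sulfotransferase, at -0.48, IGFBP1, an insulin-repressed secreted protein, at -0.57, and PDK4, a PPARA target that restrains glucose oxidation, at -0.40. For IGFBP1 and PDK4 the lowest array was replicate 3 at 3 µM, the array that stood apart.

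In the remaining lists, from fatty acid synthesis to ribosomal proteins, 0 genes rose and 0 fell, and list medians lay between -0.12 for heme synthesis and 0.10 for bile acid synthesis and transport. In the latter, CYP7B1, an oxysterol hydroxylase, was at -0.56 (adjusted p = 0.540). Its lowest array was also replicate 3 at 3 µM. Ribosomal proteins spanned only -0.12 to -0.012, so 0 of 11 were positive. A positive difference was also rare for interferon response genes (1 of 12) and heat shock genes (3 of 10). It was frequent for bile acid synthesis and transport (12 of 17), against 47.6% of all genes. Among cell type markers, COL1A1, a collagen of mesenchymal cells, was at -0.66 (adjusted p = 0.538) with overlapping groups and opposite signs among its probe sets. Its batches moved by -0.73, -0.063 and -1.19, the last in replicate 3. AP1M2, an epithelial adaptor subunit, was at 0.34 (adjusted p = 0.423), with its second probe set at -0.058.

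**Figure D3:**
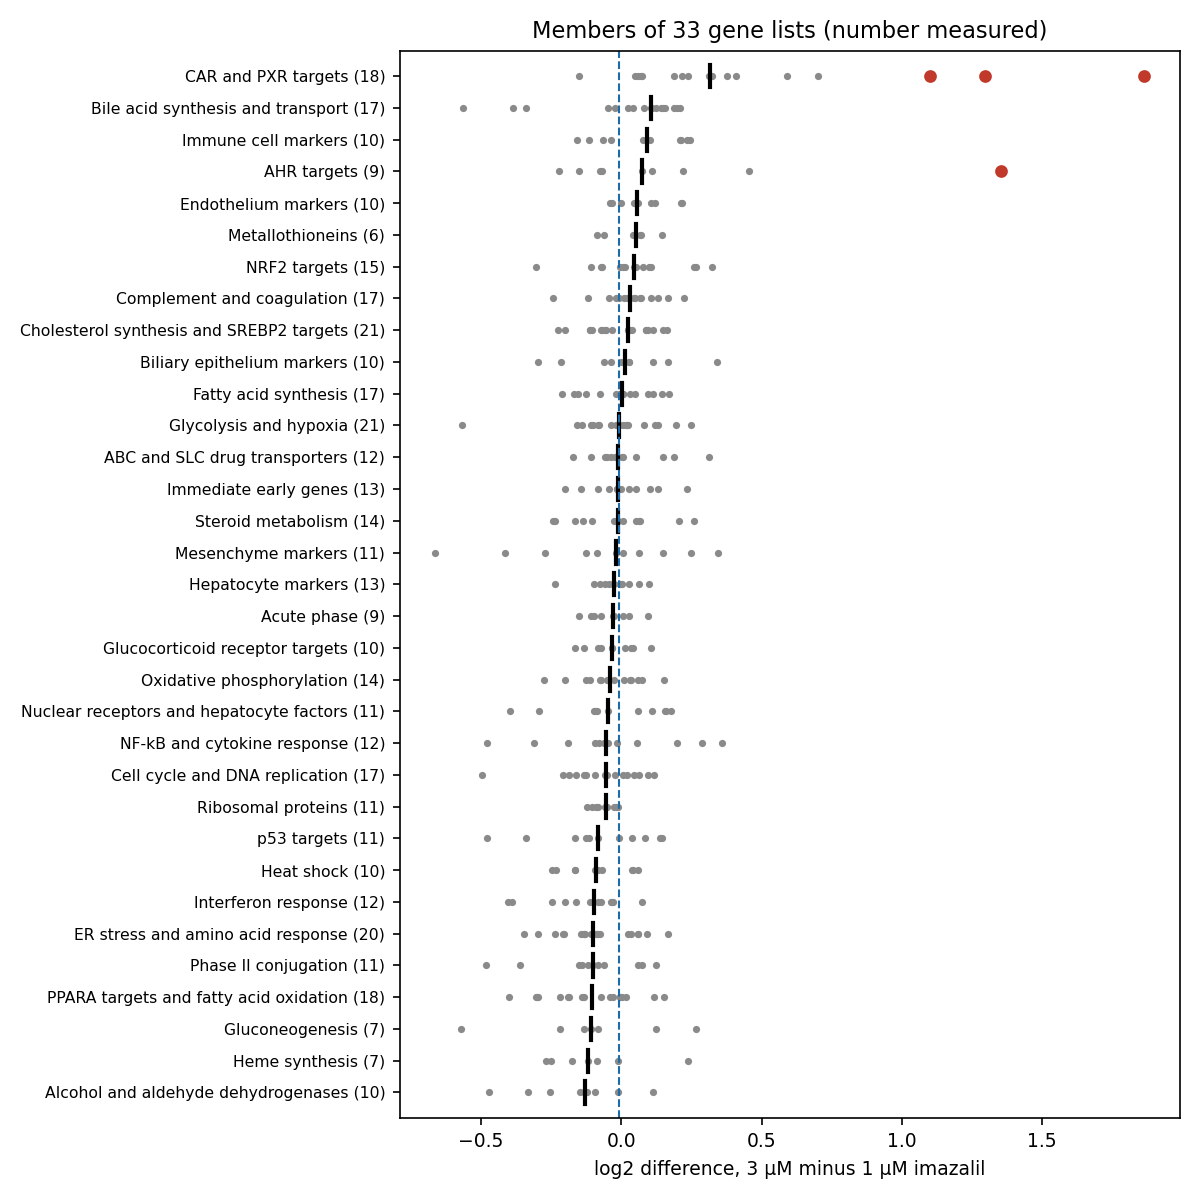
Log2 difference between 3 and 1 µM imazalil (x) for the measured members of 33 gene lists (y, with the number measured). Red points passed an adjusted p of 0.05, black bars are list medians and the dashed line is the median over all genes at -0.0088; the CAR and PXR targets have the highest median, 0.32, and hold 3 of the 4 red points.

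The levels below 1 µM give the starting point of the step. Over the 18 arrays from 0.001 to 0.3 µM, CYP2B6 ran from 3.88 to 4.42 with a median of 4.21, and its 3 DMSO arrays read 4.03, 4.26 and 4.27. CYP3A4 ran from 9.44 to 10.13 with a median of 9.81, and CYP1A1 from 2.53 to 3.34 with a median of 2.85. At 1 µM, CYP2B6 and CYP3A4 lay above all 18 of those arrays, and CYP1A1 lay within their range in 2 of 3 arrays. From 0.3 to 1 µM, 2 of 19774 genes passed (0.0101%), CYP2B6 at 1.31 and CYP3A4 at 0.68.

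The step from 1 to 3 µM was then set against the step before it. For every one of the 5 genes the later difference was larger, by 0.56 for CYP2B6, 0.61 for CYP3A4, 0.67 for CYP3A7, 0.82 for ZSCAN25 and 0.78 for CYP1A1. None of these increments passed the test, and over all genes 0 passed (0%), with 891 (4.51%) at an unadjusted p under 0.05 (limma). The 1 µM arrays enter both steps, so a low value at 1 µM lowers the first and raises the second. The 5 genes were also picked by their difference from 1 to 3 µM in these arrays, which favours a larger later step.

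The step from 3 to 10 µM, in which 55 genes passed (0.278%), separated the P450 genes. CYP2B6 was at 7.76, 7.09 and 7.70 at 10 µM, its difference from 3 µM was 0.0039, and the 2 groups overlapped. CYP1A1 was at 8.41, 8.79 and 7.65 at 10 µM, a further 3.68 above 3 µM. CYP1A2 was at 7.65, 7.72 and 7.38, a further 2.70. CYP3A4 and CYP3A7 rose again, by 0.72 and 0.76, and ZSCAN25 differed by 0.72 without passing (adjusted p = 0.157).

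The difference between the 2 steps was tested directly, and 3 of 19774 genes passed (0.0152%). The 3 µM arrays enter both steps, so a high value at 3 µM raises the step from 1 to 3 µM and lowers the next. The change from 3 to 10 µM was smaller than that from 1 to 3 µM by 1.86 for CYP2B6 (difference -1.86, SE 0.27, adjusted p = 0.0138), larger by 2.24 for CYP1A2 (SE 0.37, adjusted p = 0.0302) and larger by 2.32 for CYP1A1 (SE 0.40, adjusted p = 0.0439). The CYP1A2 probe set is of the x kind, so its call may not be independent of that of CYP1A1. CYP3A4 differed by -0.57 (adjusted p = 0.386) and CYP3A7 by -0.34 (adjusted p = 0.508), and neither passed. These 3 calls were lost without the array of replicate 3 at 3 µM. Without it 0 genes passed, with values of -1.49 for CYP2B6, 1.68 for CYP1A2 and 2.04 for CYP1A1 (adjusted p = 0.388, 0.797 and 0.797), while 964 genes had an unadjusted p under 0.05 in place of 1806 (9.13%). None passed without replicate 1 or without replicate 3 in every concentration (1474 and 734 at an unadjusted p under 0.05). Without replicate 2, 14 genes passed, of which 1, CYP1A2, was among these 3 (2.64, adjusted p = 0.0447), and CYP2B6 and CYP1A1 lost their call (adjusted p = 0.0788 and 0.116). CYP2B6 and CYP1A1 thus lost it whichever replicate was left out.

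**Figure D4:**
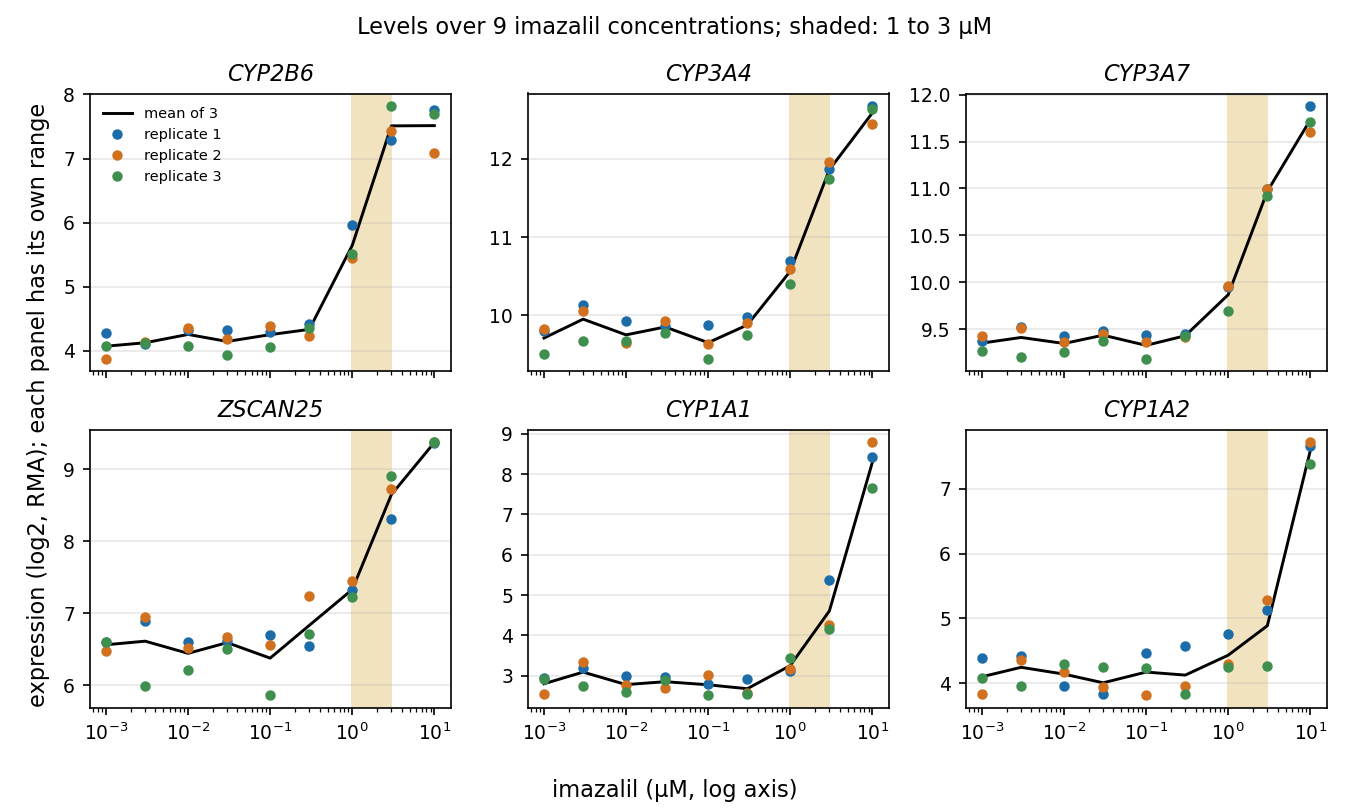
Expression on the log2 scale (y, each panel with its own range) at 9 imazalil concentrations (x, log axis) for 6 genes; points are the 3 replicates, lines are means and the shaded band is 1 to 3 µM. CYP2B6 is level between 3 and 10 µM at 7.51, CYP3A4, CYP3A7 and ZSCAN25 have higher means at 10 µM, and the CYP1 genes have most of their climb above 3 µM.

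Fenbuconazole, a triazole fungicide, was given to the same line at the same concentrations, and its arrays were normalized in a set of their own, so values stand side by side with no test between the sets. Over 1 to 3 µM, CYP2B6 differed by 1.41 with fenbuconazole and 1.86 with imazalil. CYP3A4 differed by 0.68 and 1.30, CYP3A7 by 0.34 and 1.10, and ZSCAN25 by 0.62 and 1.32, in the same order. All 3 fenbuconazole batches were positive for these 4 genes. CYP1A1 differed by 0.031 with fenbuconazole, with batches at 0.14, 0.18 and -0.23, and by 1.35 with imazalil. CYP51A1 and HMGCS1 differed by 0.31 and 0.27 with fenbuconazole, where the imazalil values were 0.039 and 0.089. With 2,4-D, a herbicide of another chemical class, CYP2B6 differed by 0.029, CYP3A4 by 0.0015 and CYP1A1 by 0.16.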

How the data were processed

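The values of HepaRG cells on Affymetrix HT HG-U133+ PM arrays were taken as the authors deposited them, as log2 expression after RMA, run per chemical on its 27 arrays and 3 shared DMSO arrays. RMA and Partek are named in the submitters' processing notes without a version. Values were fitted with limma 3.58.1 in R 4.3.3 (package data.table, release 1.17.8) as 1 mean per concentration plus the replicate as a block, over the 27 imazalil-treated arrays with 16 residual degrees of freedom, with no filter. P values were two-sided moderated t tests adjusted by Benjamini-Hochberg over 54715 probe sets or 19774 genes, at 0.05. Where a gene had several probe sets with 1 symbol, the one brightest on average stood for it. In the platform annotation 40920 probe sets had 1 symbol, 864 had several and 12931 had none listed, and 102 were controls. Names of 40864 probe sets matched RefSeq by Entrez identifier.

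The pairing by replicate comes from the supplement, which describes replicates as independent batches of cells. Deviations from concentration means correlated at a mean r of 0.0901 within a number and -0.0448 between numbers, and the paired arrays of 1 and 3 µM at 0.265, 0.210 and 0.135. The deviations within a concentration cancel out, so the value between numbers follows from that within a number. Fitted as a random effect, the replicate number had a correlation of 0.0194. Arrays have no counting depth, so their number limits precision. Genes and the 33 lists were chosen with earlier results of these data known. The rule named all genes past the threshold (up to 10 each way), the 12 smallest p, 8 fixed genes, up to 3 members of each list with an unadjusted p under 0.05, and the 6 smallest p of each difference between steps; other list members were named after their values were seen. Alternatives changed the block, the arrays, the variance model, the scaling, the dim filter, the probe set rule and the replicates. Sequences were searched with Python 3.11.15 and aligned with Biopython 1.88, and plots drawn with matplotlib 3.10.9. The scripts were tested on simulated data.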

Additional observations from a re-analysis of the deposited data

Results flagged for a closer look

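The changes over 1 to 3 µM and over 3 to 10 µM differed by the test of the difference for CYP1A1 (2.32), CYP1A2 (2.24) and CYP2B6 (-1.86), positive where the later step was larger. In that order, the calls were lost in 11, 8 and 7 of 14 alternatives, and all were lost without the array of replicate 3 at 3 µM. Over 54715 probe sets 4 passed (0.00731%), and that of CYP1A1 did not. They were the probe sets of CYP1A2 and CYP2B6, a set shared by CYP2B6 and CYP2B7P (-1.71), and a set without a listed symbol (-1.53).

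For 8 of the 58 genes named by rule, every imazalil batch moved one way between 1 and 3 µM and every fenbuconazole batch the opposite way, and this difference was not tested. Among the 56 of them whose imazalil batches all moved one way this is 14.3%, below the 23% of the 6447 such genes among all 19774. None of the 8 passed the test for imazalil itself. Their imazalil values were 0.485 for LOC114224, 0.238 for ALAS1, -0.224 for SC5D, -0.298 for PSAT1, a serine synthesis enzyme, -0.338 for FGF19, a hormone that represses bile acid synthesis, -0.431 for ZNF615, -0.478 for CXCL3, a neutrophil chemokine, and -0.480 for RRM2B, a p53-induced ribonucleotide reductase subunit. The fenbuconazole means were -0.23 for LOC114224, -0.042 for ALAS1, 0.20 for SC5D, 0.12 for PSAT1, 0.059 for FGF19, 0.16 for ZNF615, 0.23 for CXCL3 and 0.33 for RRM2B.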

How the results depend on the processing

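Between 1 and 3 µM, the count of genes stayed between 4 and 7 in all alternatives that kept every replicate, except with the 6 arrays alone, where 0 genes (1527 at an unadjusted p under 0.05) and 1 probe set passed and the 5 genes had adjusted p from 0.0556 to 0.630. Without the replicate block, 4 genes passed, all among the 5, and CYP1A1 was lost. With a trended, robust variance 17 probe sets passed. Leaving out replicates gave 3 to 6 genes and 6 to 10 probe sets, and without replicate 2 the split changed from 5 higher and 0 lower to 3 and 3 genes, of which 3 were shared with the 5, and to 6 higher and 4 lower probe sets. CYP2B7P and CYP2A6 passed with the trended, robust variance (adjusted p = 0.0209 and 0.0131) and without the 10 µM arrays (0.0230 and 0.0329).

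For the difference from the later step, the 3 genes became 1 without the replicate block, with the replicate as a random effect, with dim probe sets left out and with probe sets averaged, and 0 with only the 9 arrays compared or without the 0.001 to 0.1 µM arrays. Its 4 probe sets became 2 without the block or with the random effect, 0 with the arrays compared or without the lowest concentrations, 7 with DMSO arrays added and 11 with the trended, robust variance. Leaving out replicates gave 0 to 14 genes (1 of the 14 shared with the 3) and 0 to 1 probe sets. For the difference from the earlier step, the trended, robust variance gave 1 gene (CYP3A7) and 3 probe sets, and 1 probe set passed with DMSO arrays added, with quantile normalization or with dim probe sets left out.

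Signs turned for CYP51A1 (-0.0035 with centred arrays, -0.26 with averaged probe sets), HMGCS1 (-0.082 with averaged probe sets), TRIB3 (-0.018 with centred arrays, -0.036 to 0.088 with replicates left out, lowest without replicate 3 or its 3 µM array), DIO1 (-0.095 to 0.017, highest without that array) and the increment of CYP1A2 over the earlier step (-0.11 to 0.43, lowest without replicate 2). None of these was past the threshold. Leaving out the single array of replicate 3 at 3 µM was chosen after seeing the data. The cause of these shifts was not tested.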
